A study of Homo sapiens with 8 samples.

Results

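Of the 2925 G3BP1 binding sites listed for HEK293T cells given PDS, 1029 lay within 10000 nt of a same-strand site of the untreated cells but shared no nucleotide with any. These added sites are the subject here. They were selected on peak positions alone: a PDS peak that shares no nucleotide with a same-strand peak of the untreated (Ctrl) list was kept if its gap to the nearest such peak was at most 10000 nt, with no limit on enrichment or p. By this rule 35.2% of all PDS peaks were added sites (95% exact interval 33.4 to 36.9%, for counting error only). The count was 633 after merging peaks within 50 nt in each list, 504 with a limit of 1000 nt and 1277 with a limit of 50000 nt. When only peaks that covered at least 50% of each other counted as overlapping, it was 1353. Requiring a log2 fold of at least 4 and a -log10 p of at least 5 in both lists gave 335. Not all of these are among the 1029, of which 264 reached a log2 fold of 4. Another 894 PDS peaks overlapped a Ctrl peak and are called shared below, and 1002 lay farther than 10000 nt from any Ctrl peak and are called distant. The Ctrl list held 1421 peaks.

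HEK293T is an established human embryonic kidney cell line. The study mapped the RNA bound by G3BP1 with seCLIP, in which UV light links protein to the RNA it touches and the RNA is recovered with an antibody to G3BP1, beside an input library made without the antibody. There were 8 libraries in 4 groups of 2 replicates: antibody and input libraries of untreated cells, and antibody and input libraries of cells kept in 20 µM PDS for the last 12 h before UV light. All groups were the same cell line, and the labels name no clone, no altered gene and no vehicle for the untreated cells. The labels leave PDS unexplained; the title names guanine quadruplexes, and in that field the letters commonly mean pyridostatin, a ligand of these structures.

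G3BP1 is an RNA-binding protein of the cytoplasm that nucleates stress granules, the assemblies of stalled mRNA and protein that form when translation is blocked. A guanine quadruplex is a stack of guanine squares that a strand of RNA or DNA with several runs of guanine can fold into, and ligands such as pyridostatin hold the fold together. The question behind the comparison is whether such a ligand changes where on mRNAs G3BP1 is found, and an added site beside an untreated one marks a transcript, or a neighbour of one, that was already in the untreated list.

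Each peak has 1 deposited value that stands for both replicates, so no value below has a spread between replicates, and none of the differences between conditions could be tested. Enrichment is the authors' log2 fold of antibody over input library, and every listed peak lies above 3 on that scale. The number of reads behind a peak is unknown, and a site missing from the Ctrl list may have been bound below its limits. An hg19 sequence or annotation was not used here, so sites are named by position in hg19 and strand, and not by gene. Gaps are in genome coordinates and include any intron between the peaks.

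The rule cut the gap to the nearest Ctrl peak at 10000 nt, so the gaps are given as a description. The median gap was 1041 nt (quartiles 192 and 3597 nt, longest 9979 nt). Within 1000 nt of a Ctrl peak there were 504 added sites (49.0%, 95% exact interval 45.9 to 52.1%), and within 100 nt there were 184 (17.9%, 15.6 to 20.4%). The share within 100 nt was 8.69% after merging peaks within 50 nt, and 37.5% when peaks counted as shared only if each covered at least 50% of the other. Exactly 8 abutted a Ctrl peak with no nucleotide between them.

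Added sites were found on both sides of the untreated ones. Along the strand, 510 lay downstream of the nearest Ctrl peak (49.6%, 95% exact interval 46.5 to 52.7%) and 519 upstream. Within 100 nt there were 100 downstream and 84 upstream. From 101 to 1000 nt the counts were 173 downstream and 147 upstream, and from 1001 to 10000 nt they were 237 and 288. With the limit set at 1000 nt the downstream share was 54.2%. Ctrl peaks flanked 409 added sites on both sides within 10000 nt (39.7%), while 305 had them upstream alone and 315 downstream alone.

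**Figure D1:**
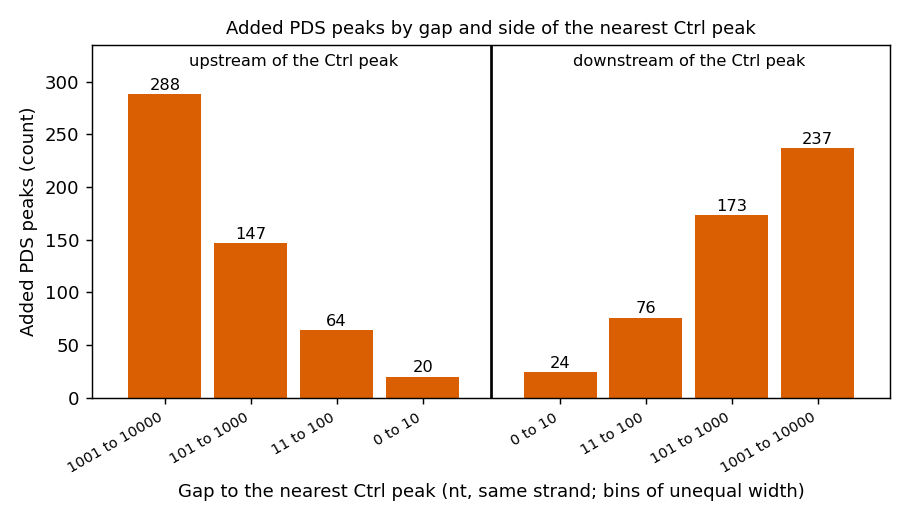
Number of added PDS peaks (vertical axis) by gap in nt to the nearest same-strand Ctrl peak (horizontal axis, bins of unequal width), with peaks upstream of the Ctrl peak on the left and downstream on the right. The bins up to 1000 nt are each taller downstream (24, 76 and 173 against 20, 64 and 147), and the farthest bin is taller upstream (288 against 237).

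Of the untreated sites beside an added site, 58.7% were also in the PDS list. Over the whole Ctrl list, 732 of 1421 peaks (51.5%) overlapped a PDS peak. The nearest Ctrl peak overlapped a PDS peak for 652 of the 1029 added sites (63.4%, 95% exact interval 60.3 to 66.3%). This share was 76.1% for gaps up to 100 nt (140 of 184), 70.6% from 101 to 1000 nt (226 of 320) and 54.5% from 1001 to 10000 nt (286 of 525). Added sites share their neighbours, so the same was counted over neighbours: 424 different Ctrl peaks were the nearest to some added site, of which 249 (58.7%, 53.9 to 63.5%) overlapped a PDS peak. Requiring that peaks cover at least 50% of each other to count as shared gave a share over added sites of 47.3%. That setting also takes in, as added sites, peaks that overlap a Ctrl peak, so the share is over 1353 sites and not the same 1029. Of the 997 Ctrl peaks that were nearest to no added site, 483 overlapped a PDS peak (48.4%, 45.3 to 51.6%). Among all 689 Ctrl peaks that no PDS peak overlapped, 394 had a PDS peak within 10000 nt. The rest could be nearest to no added site and so fall among the 997 by definition. The share of 58.7% is therefore not a like comparison with 48.4%, nor with the 51.5% over all Ctrl peaks, which includes them. The remaining 377 added sites had a nearest Ctrl peak that no PDS peak overlapped, and 44 of these lay within 100 nt of it without a shared nucleotide.

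Single neighbours differed widely in how many added sites they had. Of the 424 nearest Ctrl peaks, 204 had 1 added site and 52 had 5 or more. The leader was a Ctrl peak of low enrichment on chr10:120801750-120801838 (minus strand), with a log2 fold of 3.08, which was the nearest Ctrl peak of 21 added sites. It was followed by peaks on chr22:36685189-36685306 (minus strand, log2 fold 3.09, 16 added sites), chr5:176894744-176894784 (minus strand, 3.70, 15 added sites) and chr11:61906193-61906240 (plus strand, 3.09, 14 added sites). These 4 peaks each overlapped a PDS peak, and 3 of them lay close to the lower limit of the Ctrl list.

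In enrichment the added sites stood between the shared and the distant PDS peaks. Their median log2 fold over input was 3.58 (quartiles 3.28 and 4.02, highest 5.76), against 3.97 for shared peaks (3.53 and 4.52) and 3.39 for distant peaks (3.17 and 3.72). All Ctrl peaks had a median of 3.52. A log2 fold of at least 4 was reached by 264 added sites (25.7%, 95% exact interval 23.0 to 28.4%), by 435 shared peaks (48.7%) and by 109 distant peaks (10.9%). Over the whole PDS list 27.6% of peaks reached it, so the share of added sites was near that background. The lists were cut on this value, and the classes depend on which peaks passed in both, so these numbers describe the sites and were not tested.

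Median enrichment was higher in the closer sites. The median log2 fold was 3.81 in the 44 added sites within 10 nt of a Ctrl peak, 3.67 in the 140 from 11 to 100 nt, 3.65 in the 320 from 101 to 1000 nt and 3.52 in the 525 beyond. The quartiles of neighbouring distance classes overlapped throughout. These classes draw on different loci, which differ in both gap and enrichment, and distance was not separated from locus. Set beside its own nearest Ctrl peak, an added site had a log2 fold that was higher by a median of 0.11, with quartiles of -0.25 and 0.52, and the differences ran from -2.18 to 2.47. The added site had the higher value in 588 of 1029 cases (57.1%), each value being relative to the input of its own condition. These cases are not independent, since the same 424 Ctrl peaks serve all 1029. Both lists were cut on this value, so a Ctrl peak near the lower limit is exceeded by most listed peaks. The median log2 fold was 3.59 over the whole PDS list and 3.52 over the whole Ctrl list. The count of 588 is a description and was not tested.

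**Figure D2:**
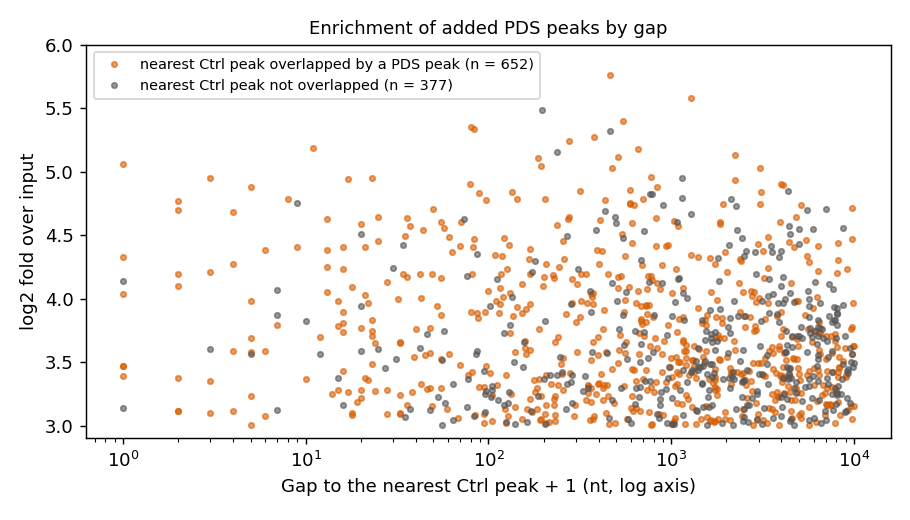
log2 fold over input of each added PDS peak (vertical axis) against its gap to the nearest Ctrl peak plus 1 nt (horizontal log axis); orange points have a nearest Ctrl peak that a PDS peak overlaps (652) and grey points one that none overlaps (377). Points above a log2 fold of 4 occur at all gaps, and the 5 to 6 range is filled mostly below 1000 nt.

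The added sites were narrow. The median was 50 nt (quartiles 23 and 75 nt), against 63 nt for shared peaks, 78 nt for distant peaks and 74 nt for Ctrl peaks. Peaks of at most 10 nt made up 134 of the added sites (13.0%, 95% exact interval 11.0 to 15.2%), 49 of the shared peaks (5.48%) and 57 of the distant ones (5.69%). Together the added sites covered 55270 nt, 28.1% of the length of the PDS list, with 35.2% of its peaks. The rule acts on peak starts and ends, so width itself bears on whether a peak shares a nucleotide with a Ctrl peak. The widths are therefore a description and were not tested.

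**Figure D3:**
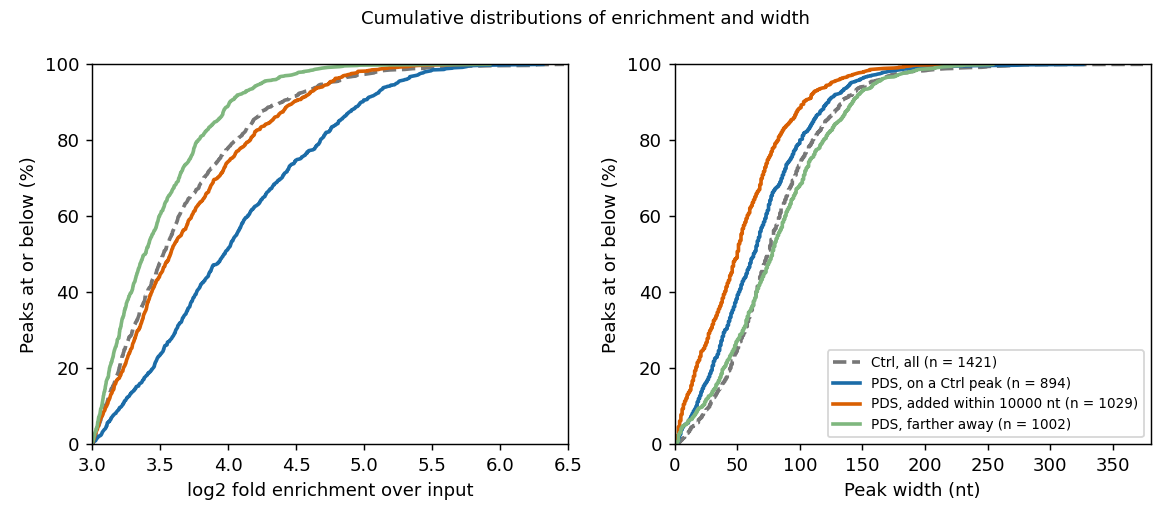
Cumulative share of peaks (vertical axes, percent) by log2 fold over input (left) and by width in nt (right) for Ctrl peaks and the 3 classes of PDS peaks. The curve of the added sites lies between those of shared and distant peaks on the left, near the Ctrl curve, and is the leftmost, with the narrowest peaks, on the right.

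Many added sites stood in runs, as did many other PDS peaks. An added site abutted another PDS peak in 462 cases (44.9%, 95% exact interval 41.8 to 48.0%), compared with 51.7% of shared and 26.1% of distant peaks. The share of added sites lay between these, so standing in runs was not particular to them. In 408 cases the abutting peaks were added sites alone, and in 54 a shared peak was among them. The median width was 35 nt for those that abutted added sites alone and 62 nt for the 567 that abutted nothing, and the median log2 fold was 3.71 and 3.45. Where an added site abutted a shared peak, its log2 fold was below that of the shared peak in 35 of 54 cases, by a median difference of -0.24 (quartiles -0.54 and 0.04).

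Joined over gaps of up to 50 nt, the PDS peaks that include an added site formed 722 regions. Of these, 633 (87.7%, 95% exact interval 85.1 to 90.0%) held added sites alone and 89 also held a shared peak, and 64 held 3 or more added sites. The regions of added sites alone were 70 nt wide at the median, with quartiles of 47 and 102 nt and a widest of 379 nt. A shared PDS peak was nonetheless in reach of most added sites, since 791 of the 1029 added sites (76.9%) had one within 10000 nt, 407 within 1000 nt and 153 within 100 nt.

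The -log10 p values differed between the lists at a matched enrichment. At a log2 fold from 3 to 3.5 the median -log10 p was 12.2 in added sites (459 peaks), 13.3 in shared, 10.6 in distant and 8.40 in Ctrl peaks (681 peaks). From 3.5 to 4 the medians were 18.9 in added sites, 18.3 in shared, 16.1 in distant and 12.5 in Ctrl peaks. From 4 to 4.5 they were 26.5, 28.9, 21.1 and 19.1, and from 4.5 to 7 they were 41.3, 48.4, 31.4 and 31.9. Added and shared sites were above the Ctrl list in all 4 ranges, while distant peaks were above it in the 3 lower ones and slightly below it in the highest. The part of this difference in the number of added sites was not tested.

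The deposited stand-in of 400 for the highest -log10 p was given to 20 added sites (1.94%), 57 shared peaks (6.38%) and 5 distant peaks (0.499%). The share of added sites thus lay between those of the other PDS peaks. The 20 added sites came from 9 separate clusters of peaks. They included 5 on the minus strand of chromosome 8 between 144996952 and 144999153 and 3 each on the minus strands of chromosome 5 and chromosome 10.

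To see how the added sites were spread over transcripts, peaks of both lists were linked wherever no more than 10000 nt lay between them on a strand; such a locus can span several genes or less than 1. Added sites fell into 279 of the 425 loci that hold peaks of both lists (65.6%, 95% exact interval 60.9 to 70.2%). The median was 2 added sites per locus, 113 loci had 1 and the richest had 28. In 120 of the 279 loci they outnumbered the Ctrl peaks. The 140 loci with a single Ctrl peak held 313 added sites, from 1 to 21 each with a median of 1, and the 39 loci with 6 or more Ctrl peaks held 358, with a median of 8. Every Ctrl peak overlapped a PDS peak in 97 of these loci, and in 92 none did, so that there the locus was occupied in both conditions but no listed site was in common.

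The 8 loci with most added sites held 170 of them (16.5%). Their Ctrl peaks numbered from 1 to 43.

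**Figure D4:**
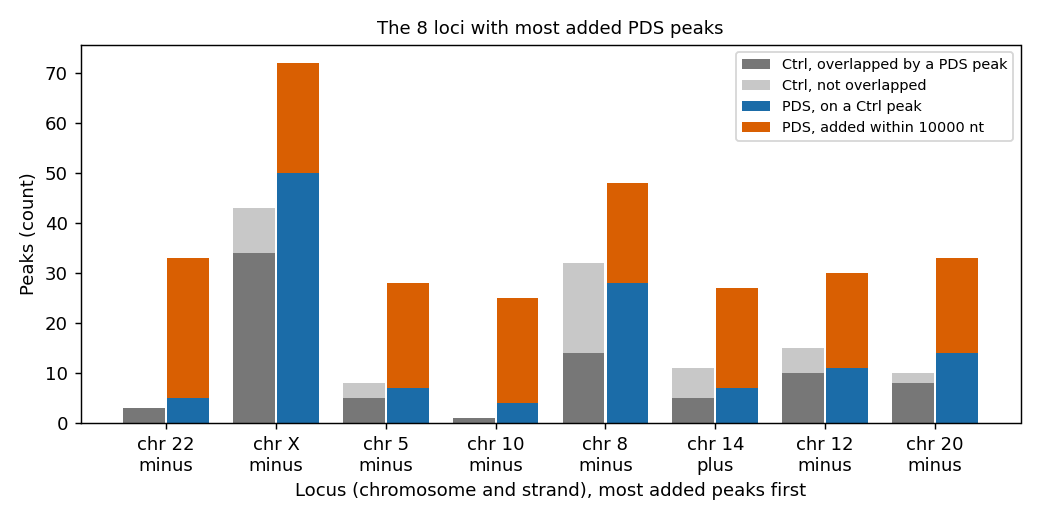
Peaks per locus (vertical axis, count) in the 8 loci with most added sites (horizontal axis, chromosome and strand); the left bar of each pair stacks Ctrl peaks that a PDS peak overlaps or not, the right bar stacks shared and added PDS peaks. The chromosome 22 and chromosome 10 loci have 3 and 1 Ctrl peaks beside 28 and 21 added sites, while the chromosome X and chromosome 8 loci have 43 and 32 Ctrl peaks beside 22 and 20.

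The chromosome 22 locus (chr22:36680454-36700157, minus strand) held 28 added sites in 15 merged regions beside 3 Ctrl peaks and 5 shared peaks. The Ctrl peaks had log2 folds of 3.09, 3.12 and 3.30. The added sites ranged from 3.26 to 4.79 with a median of 3.92, and 26 of the 28 were above the highest Ctrl peak of the locus. All 5 shared peaks were above it too, with log2 folds from 3.39 to 4.40. The highest fold belonged to an added site at 36685146 to 36685181, 7 nt downstream of the Ctrl peak at 36685189 to 36685306, where the overlapping PDS peak at 36685193 to 36685311 reached a log2 fold of 4.40. The 16 added sites downstream of that Ctrl peak ran from 3.53 to 4.79 and the other 12, on its upstream side, from 3.26 to 3.89, so the groups overlapped but the downstream side held all 11 that reached a log2 fold of 4.

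The chromosome 10 locus (chr10:120796722-120809368, minus strand) had 1 Ctrl peak, with a log2 fold of 3.08, and 25 PDS peaks. Across that Ctrl peak lay 4 shared PDS peaks with log2 folds of 4.12, 4.24, 4.57 and 4.49. The 21 added sites were lower than these, from 3.08 to 4.03 with a median of 3.47, and merged into 6 regions. They lay in groups: 6 to 442 nt from the Ctrl peak, 1727 to 1812 nt upstream of it, 3922 to 4971 nt downstream and 7474 and 7477 nt upstream.

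**Figure D5:**
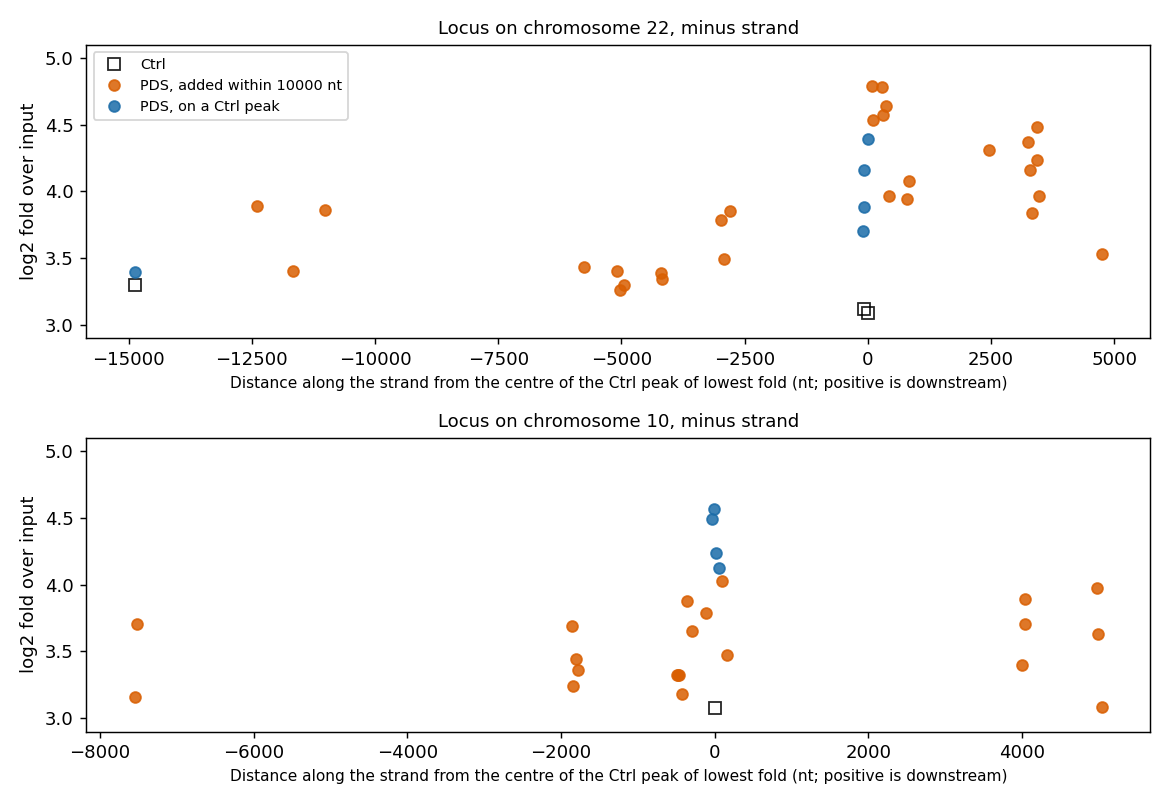
log2 fold over input (vertical axis) of every peak in the chromosome 22 (top) and chromosome 10 (bottom) loci against its distance in nt along the strand from the centre of the Ctrl peak of lowest fold (horizontal axis, positive is downstream). Open squares are Ctrl peaks, blue points shared PDS peaks and orange points added sites; on chromosome 22 the added sites near and downstream of the central Ctrl peak reach 4.79, and on chromosome 10 the shared peaks are above all added sites.

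The chromosome 5 locus (chr5:176884066-176900619, minus strand) held 21 added sites beside 8 Ctrl peaks, of which 5 overlapped a PDS peak. Of the 21, 15 had the same nearest Ctrl peak, at 176894744 to 176894784, and formed a chain of short pieces downstream of it, from 176893826 to 176894628. Their log2 folds ran from 3.18 to 4.18, whereas the shared PDS peak at that Ctrl peak had 4.93. The strongest added site lay elsewhere in the locus, at 176885515 to 176885560, with a log2 fold of 4.95 and 22 nt from a Ctrl peak of 3.47.

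In the chromosome X locus (chrX:153577052-153596260, minus strand) the added sites filled gaps in an array of 43 Ctrl peaks, 34 of which overlapped a PDS peak. The 22 added sites there were short, with a median width of 15.5 nt and 604 nt in all, and lay a median of 107 nt from the nearest Ctrl peak. Their log2 folds ran from 4.18 to 5.19, all above 4, with a median of 4.55, against 4.86 for the 50 shared peaks and 4.40 for the Ctrl peaks. None exceeded the highest Ctrl peak, at 5.85.

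The chromosome 8 locus (chr8:144990307-145008211, minus strand) had 18 of its 32 Ctrl peaks overlapped by no PDS peak, the most among the 8 loci described here. The 20 added sites had log2 folds of 3.44 to 5.49 (median 4.52) and lay a median of 94.5 nt from a Ctrl peak. The Ctrl peaks there had a median of 3.91 and a highest value of 5.12, which 3 added sites exceeded.

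The chromosome 14 locus (chr14:102466373-102511009, plus strand) held 20 added sites beside 11 Ctrl peaks, 5 of which overlapped a PDS peak. The added sites had a median log2 fold of 3.64, close to the 3.72 of the Ctrl peaks and below the 4.39 of the 7 shared ones, and lay a median of 1884.5 nt from a Ctrl peak. Here 15 of the 20 were upstream of their nearest Ctrl peak. The strongest, at 102468917 to 102468992, had a log2 fold of 4.70 and lay 5549 nt upstream of a Ctrl peak that no PDS peak overlapped.

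Both the chromosome 12 locus (chr12:6679716-6716548, minus strand) and the chromosome 20 locus (chr20:17595394-17617322, minus strand) held 19 added sites, tied with loci on chromosomes 1 and 3 and ranked before them by their strongest added site. On chromosome 12 the added sites had log2 folds of 3.05 to 5.13 with a median of 4.63, against 3.49 for the 15 Ctrl peaks and 4.78 for the 11 shared peaks. On chromosome 20 they had 3.61 to 5.03 with a median of 4.32, against 4.04 for the 10 Ctrl peaks and 4.77 for the 14 shared peaks. In the chromosome 20 locus 18 of the 19 lay downstream of their nearest Ctrl peak, and in the chromosome 12 locus 9 did.

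The 10 strongest added sites, 1 per locus, were led by a peak on chr2:54876216-54876301 (plus strand), with a log2 fold of 5.76. It lay 459 nt upstream of a Ctrl peak of 3.29. The next lay on chr11:66456203-66456320 (minus strand, log2 fold 5.58), 1287 nt downstream of a Ctrl peak of 3.14. In both cases the untreated neighbour was near the lower limit of its list and the added site was more than 2 log2 units above it.

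The third was on chr8:144996952-144996993 (minus strand, 5.49), 194 nt from a Ctrl peak that no PDS peak overlapped. The fourth, on chr7:1517307-1517309 (minus strand, 5.35), was a piece of 3 nt 79 nt from a strong Ctrl peak of 5.16. Next came chrX:118603914-118604004 (plus strand, 5.27), the only added site among 3 Ctrl and 2 PDS peaks of its locus, and chr17:79477324-79477410 (minus strand, 5.24), 276 nt from a Ctrl peak of 3.39. Among these 4, the nearest Ctrl peak had a log2 fold from 3.39 to 5.16.

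The last 4 were chrX:153593565-153593605 (minus strand, 5.19), chr12:6688045-6688065 (minus strand, 5.13), chr19:8551129-8551213 (plus strand, 5.11) and chr20:17614137-17614208 (minus strand, 5.03). Their gaps were 10, 2243, 507 and 3038 nt. Of the 10 sites, 9 had a nearest Ctrl peak that a PDS peak overlapped.

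The limits of the rule passed through continuous values. The 3 added sites nearest to the limit of 10000 nt had gaps of 9979, 9970 and 9961 nt and log2 folds of 3.63, 3.15 and 3.50, and the first 3 PDS peaks beyond it had gaps of 10100, 10106 and 10171 nt and log2 folds of 3.24, 3.52 and 3.72. At the other end, 8 added sites abutted a Ctrl peak, with log2 folds from 3.13 to 5.06, and 5 PDS peaks that share exactly 1 nt with one, and so are not added sites, had 3.36 to 4.27. With a gap of 1 nt the strongest were on chr8:144998244-144998259 (minus strand, log2 fold 4.77), chr1:226578274-226578306 (minus strand, 4.70) and chr3:184049778-184049795 (plus strand, 4.19).

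Added sites were found on all 23 chromosomes of the PDS list. Chromosome 19 held most, 98 in 35 loci, followed by chromosome 1 (95 in 33 loci) and chromosome X (90 in 16 loci). These chromosomes also had many PDS peaks (253, 302 and 233). The added sites made up 38.7%, 31.5% and 38.6% of them, near the 35.2% over the whole PDS list. Added sites made up 42.4% of the PDS peaks of chromosome 22 (42 of 99) and 2.94% of those of chromosome 4 (1 of 34), which had 8 Ctrl peaks in all. On chromosome 22 the locus described above supplied 28 of the 42. The minus strand carried 627 added sites (60.9%, 95% exact interval 57.9 to 63.9%), 58.7% of shared, 43.1% of distant and 56.0% of Ctrl peaks. The added sites lie in 279 loci, each on a single strand, so this interval, which treats sites as independent, is too narrow.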

How the data were processed

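The data were 2 peak lists in hg19, 1 for untreated and 1 for PDS-treated HEK293T cells, each combining 2 replicates. The authors worked with cutadapt, STAR and UMI-tools, per the submitters' processing notes. Which program called peaks, with which filters, and how replicates were joined is not given in the sources used here. The deposited -log10 p and log2 fold enrichment over input were read from unlabelled columns by their ranges and the usual eCLIP format, cut at 3 in both; a -log10 p of 400 was read as a stand-in, the next value being 87.9.

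Gaps, sides and overlaps (at least 1 nt, same strand) were computed with python 3.11.15, numpy 2.4.6 and pandas 2.3.3. They were tested on simulated data (peaks placed at set gaps from Ctrl peaks). The gaps equalled bedtools distances minus 1, since bedtools counts abutting peaks as 1 apart, for 2925 of 2925 PDS peaks. Starts were counted from 0 in the lists and are printed from 1. Intervals are exact binomial (scipy 1.17.1) and treat peaks as independent, though many abut each other or share a locus. The members, loci and lists were chosen with earlier results of these data known. Named sites were the 10 added sites of highest log2 fold, 1 per locus, the 8 loci with most (ties by highest fold, added to the rule), and those nearest to the limits of the rule; the nearest Ctrl peaks with most added sites and the sites sharing 1 nt were named after their values were seen. Gene lists and quadruplex patterns were planned but not run, since no sequence or gene model of hg19 was used here. Depth per sample was not analysed here.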

Additional observations from a re-analysis of the deposited data

How the results depend on the processing

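Of 35 alternative values, 17 stayed close to the one reported (within 1.5 times for counts, otherwise within its 95% interval) and 18 moved. A stricter threshold in both lists (log2 fold of at least 4, -log10 p of at least 5) gave 335 added sites with a median log2 fold of 4.49, of which 58.5% abutted another PDS peak. Some of these are not among the 1029, because Ctrl peaks below the threshold no longer count and PDS peaks on them become added sites. A limit of 1000 nt left 504, of which 36.5% lay within 100 nt, 54.2% downstream, 72.6% beside a Ctrl peak that a PDS peak overlapped, and 49.2% abutted another peak; their median log2 fold was 3.66. With a limit of 50000 nt, 14.4% lay within 100 nt and 60.1% beside an overlapped Ctrl peak. Counting a peak as shared only with reciprocal overlap of 50% gave 37.5% within 100 nt, 47.3% beside a shared Ctrl peak, 51.5% abutting and a median log2 fold of 3.67. The added sites then numbered 1353 and took in peaks that overlap a Ctrl peak, all of which count as within 100 nt by construction. With peaks merged within 50 nt there were 633 added regions, 8.69% within 100 nt and 56.1% beside an overlapped Ctrl region; abutting then has no value, because merging removes it. Leaving out the 3 loci with most added sites moved none of the 6 values. A shorter distance limit leaves fewer added sites, and a stricter threshold fewer listed peaks, by construction. Other causes were not tested. The quadruplex alternatives were not run. No paired analysis was possible because a peak has 1 deposited value that stands for both replicates; leaving out a replicate was impossible likewise.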

Other observations

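The untreated list has a counterpart to the added sites. Of the 689 Ctrl peaks that no PDS peak overlapped, 394 (57.2%, 95% exact interval 53.4 to 60.9%) lay within 10000 nt of a PDS peak on their strand and 94 (13.6%, 11.2 to 16.4%) within 100 nt. Of the 2031 PDS peaks off any Ctrl peak, 50.7% (48.5 to 52.9%) lay within 10000 nt of a Ctrl peak and 9.06% (7.85 to 10.4%) within 100 nt. The lists differ in length, and a longer list offers more neighbours, so these shares are not a comparison of the conditions. Of the 279 loci with added sites, 182 also held a Ctrl peak that no PDS peak overlapped.

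Untreated sites with added sites beside them were set against their PDS counterparts. Among Ctrl peaks overlapped by exactly 1 PDS peak, the 172 that were nearest to an added site had a median log2 fold of 3.57 in the Ctrl list and 3.87 in the PDS list, with a median difference, PDS minus Ctrl, of 0.19 (quartiles -0.15 and 0.68). The 350 others had 3.61 and 3.80, with a median difference of 0.14 (quartiles -0.29 and 0.64). The difference between these groups was not tested, and without values per replicate neither shift can be set against replicate spread.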
